A study of Macaca fascicularis with 2 samples.

Results

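The immediate early and heat shock genes are 2 sets of stress- and signal-responsive genes that were read in single cells of the fetal ovary of the cynomolgus monkey. The list named 40 genes, of which 35 have a row among the 18446 genes of the count table, namely 28 of 30 immediate early and 7 of 10 heat shock genes. JUN, KLF2, HSPA1A, HSPE1 and HSPD1 are not reported here.

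The cells came from the ovaries of 2 untreated Macaca fascicularis fetuses, 1 at embryonic day 84 (E84) and 1 at embryonic day 116 (E116), each with 1 library made on a droplet system that counts unique molecular identifiers (UMIs) at the 3′ end of a transcript. Both ovaries of a fetus were cut up and digested with enzymes at body temperature before capture, and no undigested material was analysed here, so levels in the intact ovary were not measured. The table holds 20967 cells and 148824177 UMIs, and its barcodes end in 1 (10621 cells, median 3130 UMIs) or in 2 (10346 cells, median 4555.5 UMIs). It does not say which ending is which fetus, so the endings serve as 2 unlabelled sets, fetal age is not compared and no test between groups was made.

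Immediate early genes are switched on within minutes of a signal without new protein synthesis, mostly through MAP kinase or cAMP signals that act on serum response factor and CREB at their promoters. Many encode transcription factors, such as the FOS and EGR proteins, and others encode proteins that shut the same signals down again, such as the phosphatases of the DUSP family and the mRNA-decay protein ZFP36. Heat shock genes encode chaperones that fold and refold proteins. HSPA8 and HSP90AA1 are abundant in most cells at rest. DNAJB1, HSPH1, BAG3 and HSPB1 are targets of heat shock factor HSF1 that are strongly induced when proteins misfold, and HSP90AA1 is an inducible HSF1 target as well.

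Cells were clustered with the members left out of the variable genes, and 19 of 20 clusters were named from fixed marker genes, always as resemblance. They gave 6280 germ cell-like, 6420 granulosa-like, 4562 stroma-like, 1256 ovarian surface epithelium-like, 743 erythroid-like, 547 endothelial-like, 248 macrophage-like and 134 pericyte-like cells, and 777 cells led by CBLN2 and LYPD1 stayed unnamed. Granulosa-like cells with barcodes ending in 1 lay mostly in the clusters led by SOST and TRANK1 and those ending in 2 in the clusters led by PLXNC1, MNDA and PCP4, while stroma-like cells lay in a POSTN cluster (ending 1) or a C7 cluster (ending 2). EGR4 and DUSP2, both members, were among the 10 leading genes of the SOST cluster. The surface epithelium-like cluster carried 4 markers of its own and 7 of granulosa cells, and the macrophage-like cluster 12 of its own and 9 of lymphocytes.

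Immediate early genes were far higher in somatic than in germ cells. Levels are given as summed UMIs of the genes per 1000000 UMIs of the class (CPM), with the exact 95% Poisson interval, first for barcodes ending in 1 and then for those ending in 2. The 28 genes together reached 18844 (18750.3–18938) and 20301 (20232–20369) CPM in stroma-like cells. Granulosa-like cells held 14975 (14914–15036) and 9768 (9728–9808) CPM in the same order, and germ cell-like cells 2525 (2506–2544) and 1713 (1697–1729) CPM. Every class of at least 100 cells but the erythroid-like one lay above the germ cell-like class in both sets of barcodes. In those ending in 2 pericyte-like cells had 16832 (16522–17147) CPM and endothelial-like cells 16912 (16794–17029.9) CPM, next below stroma-like cells, and macrophage-like cells 10179 (9981–10380.3) CPM. Intervals here and below cover counting error only, since each set is 1 library and cells of a library are not replicates.

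The sum of the heat shock genes did not show that split, though single genes did, as given below. HSP90AA1 alone made up 69.7% and 73.2% of the sum in germ cell-like cells by ending. The summed level was 8864 (8827–8899.9) and 10567 (10526–10607) CPM in germ cell-like cells by ending, 9112 (9064–9159.5) and 6610.3 (6577–6643) CPM in granulosa-like and 7992 (7931–8053) and 10167 (10119–10216) CPM in stroma-like cells. Surface epithelium-like cells had the lowest sum of the large somatic classes, 5144 and 5903 CPM, and endothelial-like cells with barcodes ending in 2 the highest of all, 11927 (11828–12026) CPM. Germ cell-like cells carried 0.285 and 0.162 immediate early UMIs for each heat shock UMI, against 1.64 and 1.48 in granulosa-like and 2.36 and 2.00 in stroma-like cells.

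**Figure D1:**
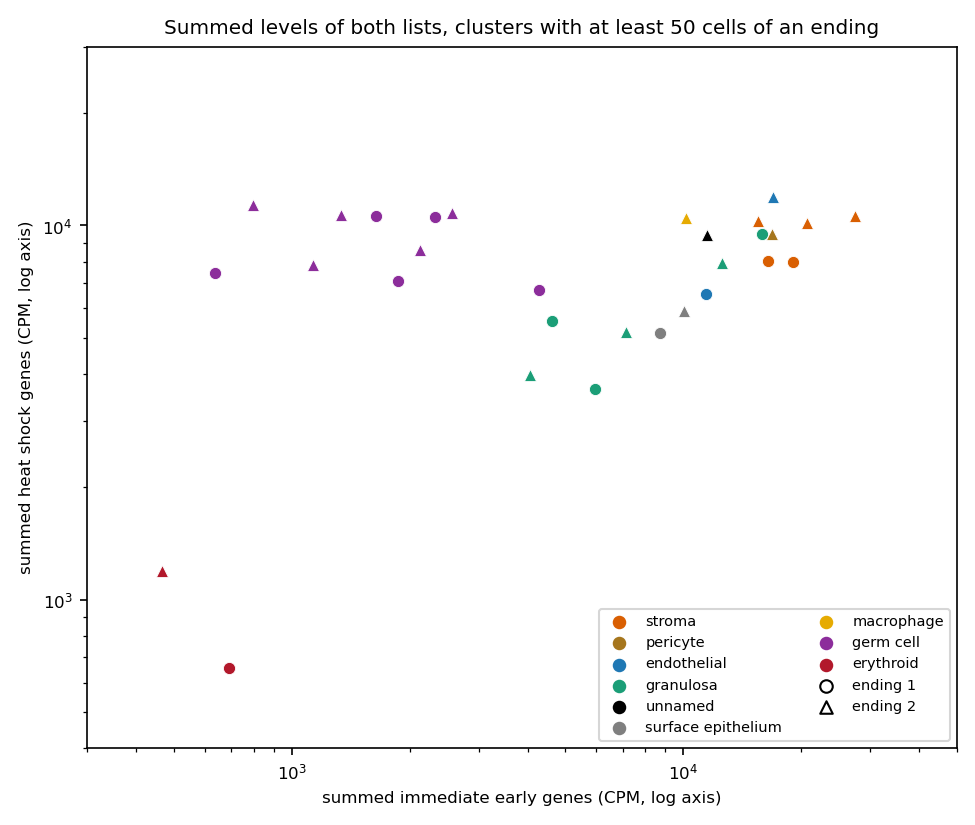
Each point is a cluster's cells of 1 barcode ending (circles ending 1, triangles ending 2, colour by class), with the summed CPM of the 28 immediate early genes on the x axis and of the 7 heat shock genes on the y axis, both log axes. Germ cell-like clusters lie between 637 and 4288 CPM of immediate early genes at a heat shock level like that of stroma-like clusters, and erythroid-like cells are low on both axes.

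Erythroid-like cells, which should express few of these genes, serve here as a rough measure of background from RNA outside cells. They had the lowest CPM of all classes for each of the 28 immediate early and 7 heat shock genes in both sets of barcodes, with summed immediate early levels of 691 (661–722) and 465 (421–511) CPM. The globin gene HBB alone held 490911 and 390196 CPM in them, which lowers the CPM of every other gene. Scaling factors from trimmed means were 0.158 and 0.239 for erythroid-like and 1.53 and 1.38 for germ cell-like cells by ending, so the erythroid-like rank depends on the scaling. To compare shares of cells, each cell was thinned to 1000 UMIs, which left out 3024 shallower cells. A FOS UMI was then found in 15.2% (12.0–18.9) and 14.6% (10.2–20.1) of erythroid-like cells by ending (exact 95% binomial intervals), in 23.7% (22.2–25.3) and 19.2% (17.3–21.3) of germ cell-like cells and in 70.9% (69.1–72.7) and 50.9% (49.2–52.7) of granulosa-like cells. Unthinned, these shares were 47.1% and 31.4%, 49.5% and 52.4%, and 78.4% and 69.9%, at median depths of 4862 and 2950.5, 1992 and 3251, and 3940 and 3300.5 UMIs. The germ cell share of FOS lay nearer the erythroid than the granulosa one, and its interval overlapped the erythroid one in barcodes ending in 2 and not in those ending in 1. As a level, FOS was at 649.9 and 364 CPM in germ cell-like and 228 and 129 CPM in erythroid-like cells. It was thus higher in CPM in germ cell-like cells in both sets, but the globin share of erythroid-like cells lowers both their CPM and their thinned shares. In germ cell-like cells FOS stood to EGR1 as 1.57 and 1.66 UMIs to 1, in granulosa-like cells as 1.57 and 1.34 and in stroma-like cells as 2.12 and 2.07. Without the 849 and 827 cells of the highest doublet scores the germ cell sums were 2077 and 1017.8 CPM, so that 1 choice of cells moved the second by over 1.5-fold, and how much of the germ cell level is free RNA was not tested.

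The AP-1 subunits are the dimerising transcription factors of the FOS, JUN and ATF families. FOS, the gene with most immediate early UMIs (410299), was at 6931 and 7059 CPM in stroma-like, 4219 and 2137 CPM in granulosa-like, 2939.8 and 3063 CPM in surface epithelium-like and 3039.6 and 3984 CPM in endothelial-like cells by ending, and at 649.9 and 364 CPM in germ cell-like cells. Stroma-like cells thus stood above all other classes in both sets, and granulosa-like cells were second in barcodes ending in 1 only. FOSB was likewise highest in stroma-like cells in both sets, at 1696 and 1599 CPM in stroma-like, 1032 and 864 CPM in granulosa-like and 186 and 122 CPM in germ cell-like cells. ATF3, which is induced by stress as well as by growth signals, was at 556 and 621 CPM in stroma-like, 539 and 369 CPM in granulosa-like and 64.2 and 62.5 CPM in germ cell-like cells, and its highest level was 775 (757–793) CPM in the unnamed CBLN2 cluster. FOSL2 departed from FOS: in barcodes ending in 2 it reached 260.2 (246–275) CPM in endothelial-like and 258 (228–292) CPM in macrophage-like cells, whose intervals overlap, against 103 and 102 CPM in stroma-like and 14.5 and 22.5 CPM in germ cell-like cells. JUNB and JUND were sparse, with 2801 and 1480 UMIs in all cells and at most 57.6 and 24.2 CPM in any class of at least 100 cells.

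The EGR genes encode zinc finger factors induced through serum response factor. EGR1 was at 3267 and 3407 CPM in stroma-like, 2681 and 1589.6 CPM in granulosa-like and 414 and 219.5 CPM in germ cell-like cells. Macrophage-like cells of ending 2 had little of it, 352 (316–391) CPM, next to 2049 CPM of FOS. Unlike FOS, EGR3 was highest in granulosa-like cells, with 769 and 432 CPM against 462 and 410.0 CPM in stroma-like and 102 and 51.7 CPM in germ cell-like cells. EGR2 was at 270.4 and 201 CPM in granulosa-like, 172 and 244 CPM in stroma-like and 42.0 and 25.1 CPM in germ cell-like cells. EGR4 was the member whose highest class, granulosa-like in both sets, stood furthest above the other large ones: it was at 106 (101–111) and 34.4 (32.0–36.8) CPM there, at 8.95 and 8.31 CPM in stroma-like and 10.6 and 2.80 CPM in germ cell-like cells.

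Among the NR4A orphan nuclear receptors, NR4A1 was at 667 and 774 CPM in stroma-like, 644 and 429 CPM in granulosa-like and 120.0 and 87.2 CPM in germ cell-like cells, with the highest level, 829 (761–901) CPM, in pericyte-like cells of ending 2. NR4A2 had another pattern. In barcodes ending in 2 it was highest in the unnamed cluster, at 509 (495–523) CPM, ahead of 433 (393–476) CPM in macrophage-like and 394 (348–445) CPM in pericyte-like cells, whose intervals overlap. It was at 111 and 249.6 CPM in granulosa-like, 90.7 and 124 CPM in stroma-like and 31.6 and 50.5 CPM in germ cell-like cells. NR4A3 had 518 UMIs in all cells and stayed at or below 16.6 CPM in every class of at least 100 cells.

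The IER genes encode short-lived regulators of growth and survival. IER2 was at 118 and 19.1 CPM in granulosa-like, 106 and 56.2 CPM in stroma-like and 11.4 and 3.67 CPM in germ cell-like cells, and in all 3 classes the set ending in 1 was higher. IER3 was at 138 and 137 CPM in granulosa-like, 82.9 and 106 CPM in stroma-like and 32.0 and 20.0 CPM in germ cell-like cells, with 529.9 (485–577) CPM in macrophage-like cells of ending 2. Of the KLF zinc finger factors, KLF6 was highest in macrophage-like (640.4 CPM) and endothelial-like cells (435 CPM) of ending 2 and at 99.2 and 181 CPM in stroma-like, 64.8 and 151 CPM in granulosa-like and 21.9 and 30.5 CPM in germ cell-like cells. KLF4, a gatekeeper of epithelial and vascular identity, was highest in stroma-like cells at 41.6 and 25.2 CPM, against 20.3 and 11.1 CPM in granulosa-like and 6.60 and 2.48 CPM in germ cell-like cells. IER5 had 328 UMIs in all cells and stayed at or below 6.02 CPM in every class of at least 100 cells.

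The genes that act back on the response were also higher in granulosa-like and stroma-like than in germ cell-like cells. ZFP36, which marks AU-rich mRNAs for decay, was at 810.3 and 1461 CPM in stroma-like, 634 and 521 CPM in granulosa-like and 116 and 95.3 CPM in germ cell-like cells. Its relative ZFP36L1 differed less between the large somatic classes, at 1246 and 1017 CPM in stroma-like, 1074 and 969.8 CPM in granulosa-like, 1137 and 1145 CPM in surface epithelium-like and 1472 and 1503 CPM in endothelial-like cells, against 238 and 147 CPM in germ cell-like cells. Other classes of ending 2 spread wider, from 482 (440.0–528) CPM in macrophage-like and 608 (592–624) CPM in unnamed to 1527 (1435–1624) CPM in pericyte-like cells. BTG2, an antiproliferative factor, was at 438 and 229 CPM in granulosa-like, 392 and 317 CPM in stroma-like and 68.1 and 45.7 CPM in germ cell-like cells. Of the MAP kinase phosphatases, DUSP1 was highest in endothelial-like cells in both sets, with 418 (371–468) and 1709.7 (1672–1748) CPM, and was at 312 and 381 CPM in granulosa-like, 328 and 632 CPM in stroma-like and 70.1 and 98.2 CPM in germ cell-like cells. DUSP2 was at 590.2 and 132 CPM in granulosa-like, 174 and 303 CPM in stroma-like and 65.4 and 52.8 CPM in germ cell-like cells, so that granulosa-like cells led in barcodes ending in 1 and stroma-like cells in those ending in 2. Surface epithelium-like cells held 75.8 and 54.0 CPM of DUSP2, close to the germ cell level.

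Among the other regulators, GADD45B, a growth-arrest and stress gene, was at 928 and 1242 CPM in stroma-like, 752 and 542 CPM in granulosa-like and 126 and 92.0 CPM in germ cell-like cells. The basic leucine zipper factor MAFF and the growth regulator MYC were both higher in stroma-like cells, MAFF at 280.0 and 207 CPM against 96.4 and 52.9 CPM in granulosa-like cells and MYC at 169 and 187 against 42.2 and 55.7 CPM, and pericyte-like cells of ending 2 held still more, 342 (299–389) and 208 (174–245) CPM. Germ cell-like cells held 19.1 and 11.3 CPM of MAFF and 12.5 and 9.86 CPM of MYC. DDIT3 is the CHOP factor of the unfolded protein response and MXD1 a partner of MAX that opposes MYC. Of the immediate early genes, both differed least between granulosa-like and germ cell-like cells. Their log2 ratios by ending were 1.16 and 0.77 for DDIT3 and 1.22 and 0.67 for MXD1, past 2-fold in barcodes ending in 1. DDIT3 was at 103 and 97.8 CPM in granulosa-like, 59.1 and 95.4 CPM in stroma-like and 46.1 and 57.4 CPM in germ cell-like cells, and MXD1 at 108 and 52.3, 81.6 and 58.8 and 46.1 and 32.9 CPM in that order. Of DDIT3 the unnamed cluster held the most, 186 (178–195) CPM.

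**Figure D2:**
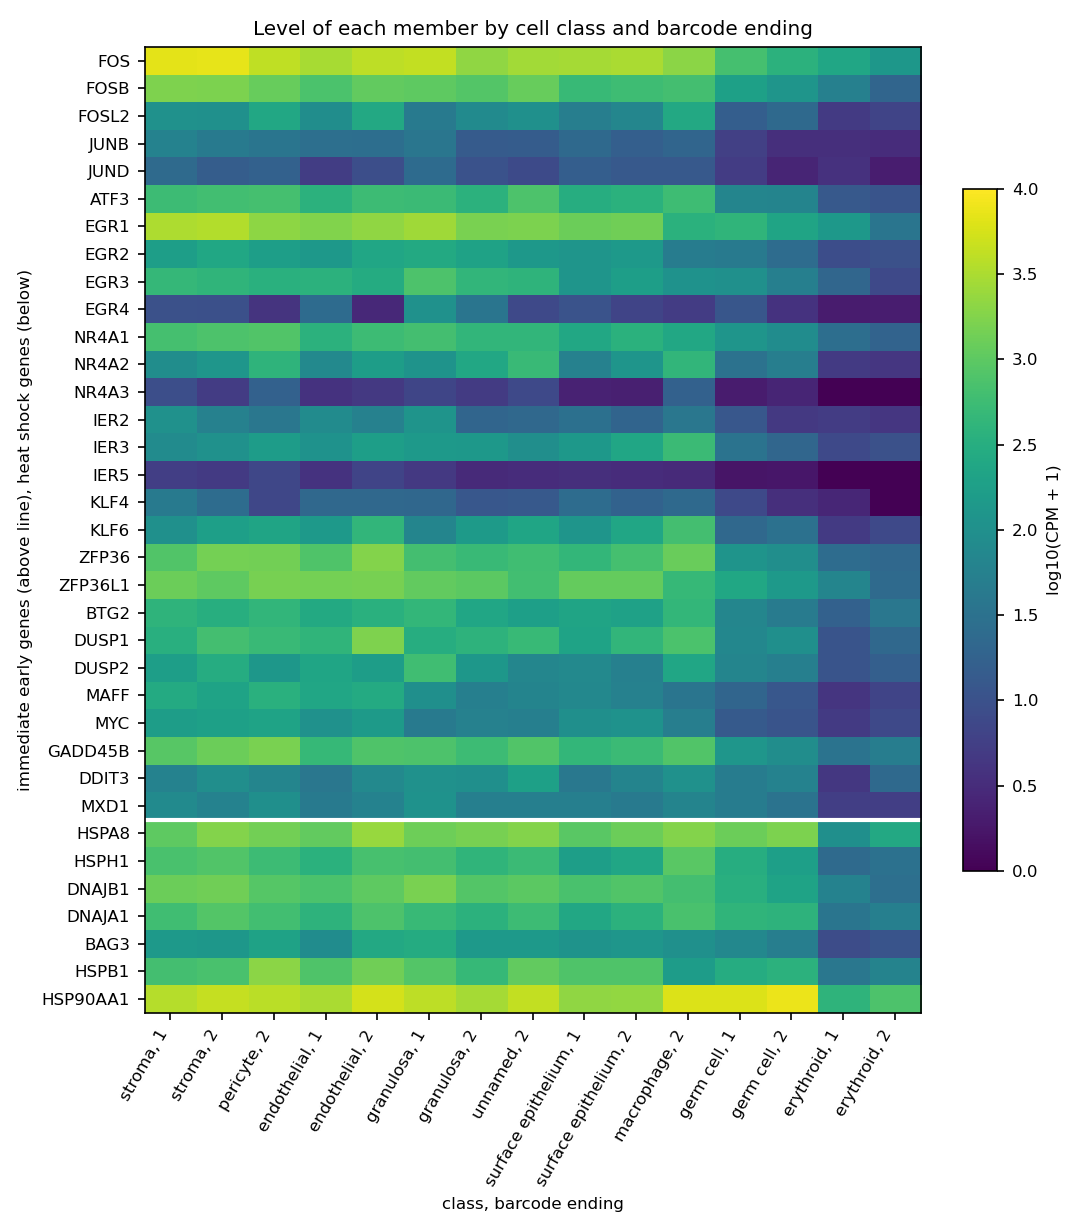
Heat map of log10(CPM + 1) for the 35 members (rows, immediate early genes above the white line, heat shock genes below) in each class and barcode ending with at least 100 cells (columns). Immediate early genes are bright in somatic columns and dark in germ cell and erythroid columns, while HSP90AA1 is brightest in the germ cell columns.

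The heat shock genes did not share 1 pattern. HSP90AA1, a cytosolic HSP90 that matures client kinases and receptors, was highest in germ cell-like cells in both sets, at 6182 (6152–6212) and 7735 (7700.2–7769) CPM, against 3968 and 2844 CPM in granulosa-like and 3642 and 4529 CPM in stroma-like cells. It made up 69.7% and 73.2% of the heat shock UMIs of germ cell-like cells and 43.5% and 43.0% of those of granulosa-like cells. A HSP90AA1 UMI was found after thinning in 98.6% (98.1–98.9) and 97.5% (96.6–98.2) of germ cell-like cells, in 89.0% (87.7–90.2) and 83.0% (81.6–84.3) of granulosa-like cells and in 33.8% (29.4–38.4) and 47.2% (40.3–54.1) of erythroid-like cells. HSPA8, the constitutive cytosolic HSP70, differed little between the 3 largest classes: it was at 1260.2 and 1625 CPM in germ cell-like, 1294 and 1490.1 CPM in granulosa-like and 1002 and 1786 CPM in stroma-like cells. DNAJA1, an HSP40 partner of HSPA8, was at 412 and 391 CPM in germ cell-like, 501 and 375 CPM in granulosa-like and 601 and 847 CPM in stroma-like cells. Reads that match several places are dropped in the counting, and HSPA8 and HSP90AA1 have near-identical copies in primate genomes, so the absolute level of both is uncertain.

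DNAJB1, HSPH1, BAG3 and HSPB1 had higher levels in granulosa-like and stroma-like than in germ cell-like cells. DNAJB1, the HSP40 that starts disaggregation, was at 1575 and 858 CPM in granulosa-like, 1262 and 1351 CPM in stroma-like and 328 and 208 CPM in germ cell-like cells. HSPH1, the HSP110 exchange factor, was at 644 and 419 CPM in granulosa-like, 704 and 821 CPM in stroma-like and 308 and 183 CPM in germ cell-like cells. BAG3, a co-chaperone of selective autophagy, was at 293 and 145, 143 and 128 and 72.9 and 50.8 CPM in that order. HSPB1, a small heat shock protein that binds unfolded clients and actin, was at 837 and 479.7, 637 and 706 and 300.3 and 375 CPM in the same order. In barcodes ending in 2, pericyte-like cells had the most, 2006 (1899.8–2117) CPM, and endothelial-like cells the next, 1357 (1324–1391) CPM. Macrophage-like cells of that ending had 159 (135–186) CPM, the least outside the erythroid-like class, yet the most HSPH1, 959.6 (899–1023) CPM.

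The comparison of granulosa-like with germ cell-like cells asks how somatic support cells and the germ cells beside them differ. With barcodes ending in 1, 28 of 28 immediate early genes were at least 2-fold higher in granulosa-like cells, where 20.3% of the 14403 genes with at least 20 UMIs were, and their median log2 ratio was 2.47 against −0.03 over all those genes. With barcodes ending in 2, 26 of 28 were, against 19.7% of 14512 genes, and the medians were 2.38 and −0.29. The summed level had a log2 ratio of 2.57 (2.56 to 2.58) in the first and 2.51 (2.50 to 2.53) in the second set, each with its exact binomial 95% interval. It was 3.37 in the first set when only cells with 200 to 3000 detected genes were kept, and 3.26 in the second without the cells of the highest doublet scores. The range of single genes ran from 1.16 (1.05 to 1.27) for DDIT3 to 3.37 (3.19 to 3.56) for IER2 in barcodes ending in 1, and from 0.67 (0.54 to 0.80) for MXD1 to 3.62 (3.27 to 3.99) for EGR4 in those ending in 2. None was 2-fold lower, in a table where 22.0% and 31.2% of all genes were.

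Heat shock genes in the same comparison went both ways. Of 7, DNAJB1, HSPH1, BAG3 and HSPB1 were over 2-fold higher in granulosa-like cells with barcodes ending in 1, and DNAJB1, HSPH1 and BAG3 in those ending in 2. Of all genes 20.3% and 19.7% were 2-fold higher by ending. Median log2 ratios were 1.06 and 0.35 over the 7 genes and −0.03 and −0.29 over all genes. DNAJB1 had log2 ratios of 2.26 (2.23 to 2.30) and 2.05 (2.00 to 2.09), BAG3 of 2.01 (1.93 to 2.09) and 1.51 (1.42 to 1.60), and HSPB1 of 1.48 (1.44 to 1.52) and 0.35 (0.31 to 0.39). HSP90AA1 was lower in both sets, past 2-fold in the second, with log2 ratios of −0.64 (−0.65 to −0.63) and −1.44 (−1.46 to −1.43). It was the only one of the 7 past 2-fold lower, where 22.0% and 31.2% of all genes were by ending. HSPA8 and DNAJA1 lay within 0.3 of 0 in both sets, and in barcodes ending in 2 their sign turned when the library sizes were scaled by trimmed means, which moved every ratio by 0.28. The summed log2 ratio was 0.04 (0.03 to 0.05) and −0.68 (−0.69 to −0.67). The first of these turned to −0.19 in cells thinned to 1000 UMIs, and without HSP90AA1 the sums of the other 6 genes gave 0.94 and 0.41.

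**Figure D3:**
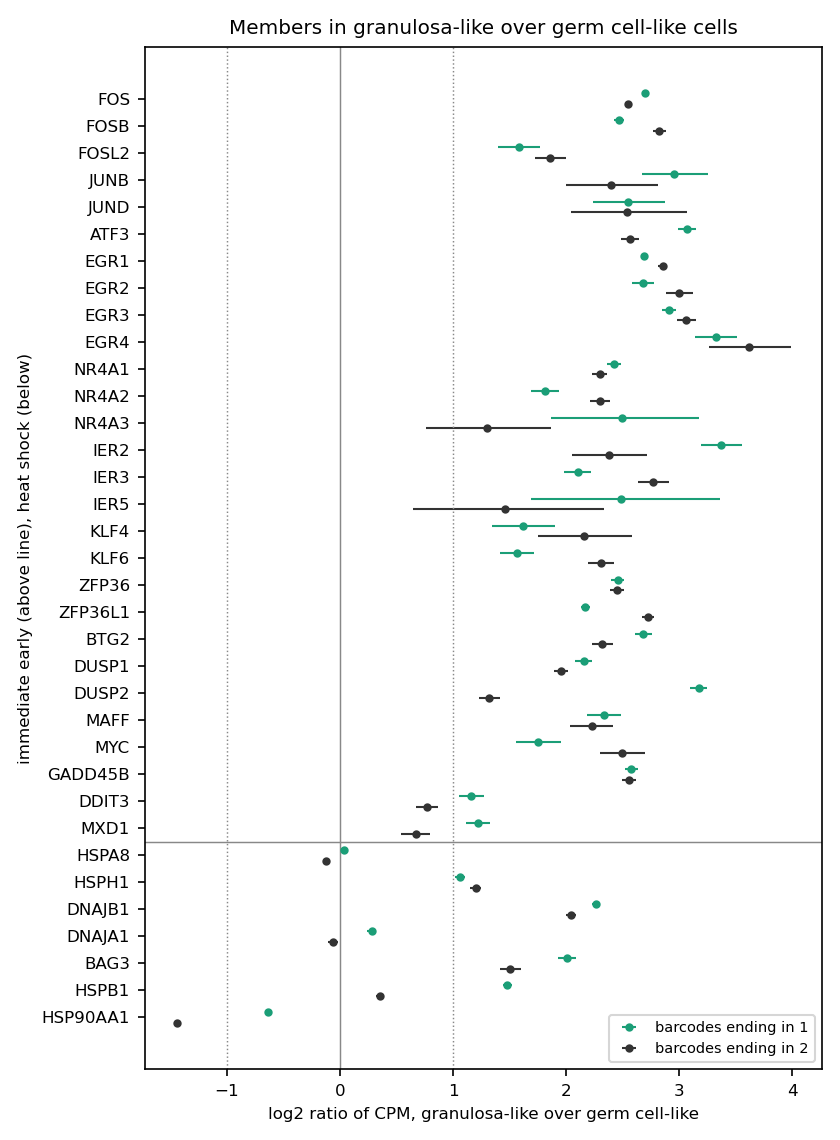
Log2 ratio of CPM in granulosa-like over germ cell-like cells for each member (points) with exact 95% intervals for counting error (bars), by barcode ending. The dotted lines mark 2-fold, and all immediate early genes lie right of 0 while HSP90AA1 lies left of it in both sets.

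Stroma-like cells stood even further from germ cells. Of the 28 immediate early genes, 25 were 2-fold higher in barcodes ending in 1 (17.2% of all genes) and 26 in those ending in 2 (18.9%), and none was 2-fold lower (28.7% and 32.7% of all genes). Their median log2 ratio was 2.59 and 3.07, against −0.26 and −0.36 over all genes, and the summed log2 ratios were 2.90 (2.89 to 2.91) and 3.57 (3.55 to 3.58). The exceptions were DDIT3 and MXD1 in both sets and EGR4 in the first, with a log2 ratio of −0.24 (−0.63 to 0.13). Of the 7 heat shock genes, DNAJB1, HSPH1 and HSPB1 were 2-fold higher in the first set and DNAJB1, HSPH1, BAG3 and DNAJA1 in the second, while HSP90AA1 had log2 ratios of −0.76 (−0.78 to −0.75) and −0.77 (−0.78 to −0.76).

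Granulosa-like and stroma-like cells differed less, and by gene. Stroma-like cells had more MYC, with log2 ratios of granulosa-like over stroma-like cells of −2.00 (−2.14 to −1.86) and −1.75 (−1.84 to −1.65), and more MAFF, with −1.54 (−1.63 to −1.44) and −1.97 (−2.06 to −1.88). EGR4 was the reverse, with 3.57 (3.23 to 3.92) and 2.05 (1.79 to 2.32). In barcodes ending in 1, 2 immediate early genes (EGR4 and DUSP2) were 2-fold higher and 4 (FOSL2, KLF4, MAFF and MYC) 2-fold lower in granulosa-like cells, where 15.7% and 9.84% of all genes were. In barcodes ending in 2, 2 (EGR4 and NR4A2) were higher and 10 lower, against 14.4% and 11.6% of all genes. The 10 included FOS, EGR1, ZFP36 and GADD45B, and this set holds the granulosa-like cluster led by PLXNC1 with a median of 48.4% mitochondrial UMIs and 4057 CPM of immediate early genes, the lowest of the granulosa-like clusters of at least 50 cells. Among heat shock genes BAG3 was 2-fold higher in the first set, with a log2 ratio of 1.03 (0.94 to 1.13), and DNAJA1 2-fold lower in the second, with −1.18 (−1.22 to −1.14).

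Within the germ line, the summed level of immediate early genes was highest in the mitotic cells and lowest in the deepest meiotic cells. Stages were named from fixed stage markers. Mitotic cells, nearly all with barcodes ending in 1, had a summed level of 4288 (4236–4340.2) CPM, premeiotic cells 2236 (2211–2261) and 2472 (2439–2506) CPM by ending, meiotic cells 1436 (1406–1467) and 1199 (1169–1229) CPM, and oocyte-stage cells of ending 2 1332 (1311–1354) CPM. FOS alone was at 1134 (1108–1161) CPM in mitotic, 580.0 and 553 CPM in premeiotic, 333 and 221 CPM in meiotic and 267 CPM in oocyte-stage cells. The order from mitotic to meiotic held for EGR1 too, at 733, then 355 and 338, then 234 and 116 CPM. Much of the mitotic sum came from few cells. In thinned mitotic cells of ending 1 the median was 1 immediate early UMI, 40.7% had none and the tenth with most held 56.7%. The shallower meiotic cluster, led by SYCE3, also had a median of 1 in that ending, with 30.3% at none. Means were 2.67 and 1.59 in that order, and the deepest meiotic cells had a median of 0. How far cells of high doublet scores set the stage order was not tested.

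Meiotic cells fell into 2 clusters of unequal depth. The cluster led by RAD51AP2 and SYCP1 (195 and 190 cells by ending, median 10153 and 18504.5 UMIs) held 637 and 798 CPM of immediate early genes, next to 691 and 465 CPM in erythroid-like cells. The shallow cluster led by SYCE3 and SYCP3 (1802 and 439 cells, median 1126.5 and 1497 UMIs) held 1868 and 2131 CPM. In the deep cluster FOS was at 117 (103–133) and 105 (94.6–116) CPM, below its 228 and 129 CPM in erythroid-like cells. Erythroid-like cells differ from this cluster in depth, with medians of 4862 and 2950.5 UMIs, and in globin share. How much of this FOS is free RNA was not tested. DDIT3, DUSP1 and MXD1 had higher CPM in the deep cluster than in erythroid-like cells in both sets, but globin lowers the erythroid-like CPM of these genes too. Trimmed-mean scaling factors were 0.158 and 0.239 for erythroid-like and 1.53 and 1.38 for all germ cell-like cells by ending. The size and direction of these differences thus depend on the scaling. The deep cluster held 62.2 (52.0–73.8) and 124 (113–137) CPM of DDIT3, against 3.46 (1.66–6.37) and 22.2 (13.6–34.3) CPM in erythroid-like cells. It held 41.3 (33.1–50.9) and 122 (111–134) CPM of DUSP1 against 10.0 and 21.1 CPM, and 74.5 (63.3–87.1) and 36.6 (30.6–43.4) CPM of MXD1 against 4.50 and 4.44 CPM. DDIT3 made up 9.75% and 15.6% of the cluster's immediate early UMIs, less than FOS (18.4%) with barcodes ending in 1 and more than FOS (13.2%) with those ending in 2, and in granulosa-like cells its share was 0.69% and 1.00%.

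Heat shock genes followed another course in the germ line. HSP90AA1 was at 3732 (3684–3781) CPM in mitotic cells, like a somatic class, and at 7469.9 and 7027 CPM in premeiotic, 5743 and 8204 CPM in meiotic and 8119.6 CPM in oocyte-stage cells. HSPA8 was highest in premeiotic cells, at 1507 and 2010.3 CPM. HSPB1 was lower in meiotic than in premeiotic cells of both sets. It was at 480.3 CPM in mitotic cells of ending 1, 321 and 435 CPM in premeiotic and 79.2 (72.2–86.6) and 91.7 (83.6–100.5) CPM in meiotic cells. Oocyte-stage cells of ending 2 held 455 (443–468) CPM of HSPB1. The 25 oocyte-stage cells of ending 1 held 22.3 (7.24–52.1) CPM, from 5 UMIs. DNAJB1 instead followed FOS, with 554 CPM in mitotic, 295 and 259 CPM in premeiotic and 178 and 151 CPM in meiotic cells.

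**Figure D4:**
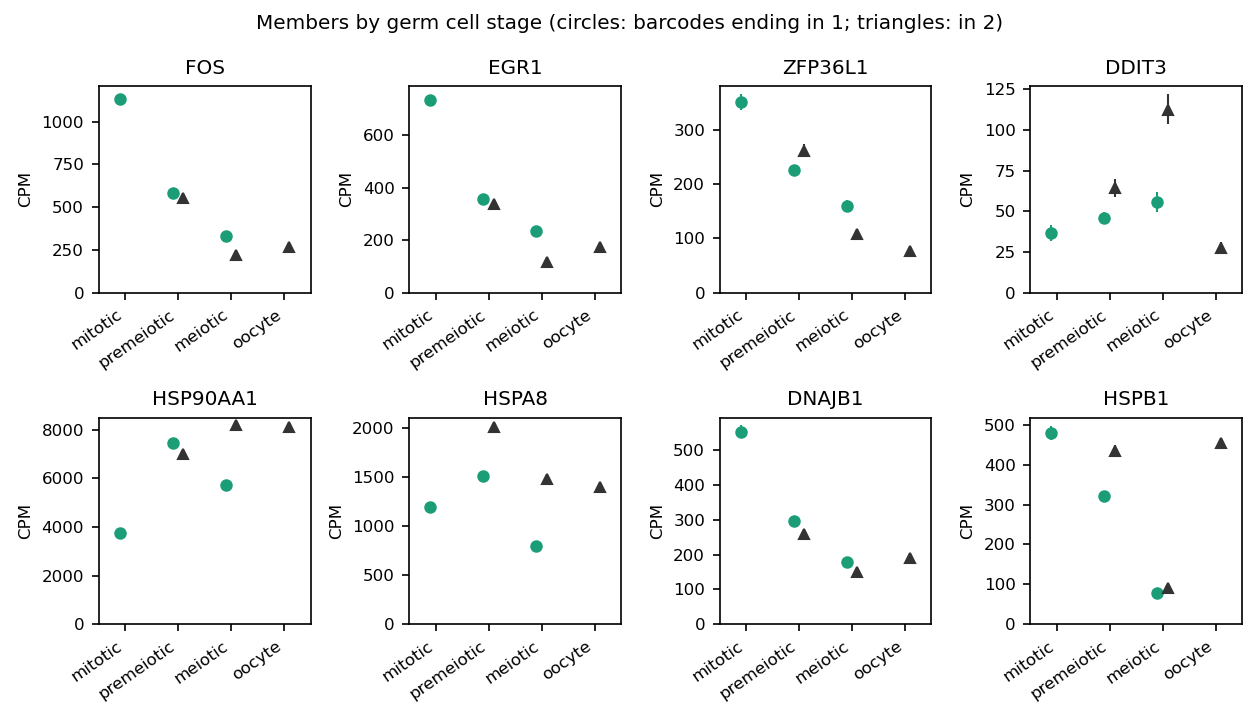
CPM of 8 members by germ cell stage (x axis) and barcode ending, for stages with at least 100 cells of an ending, with exact 95% Poisson bars that are mostly smaller than the symbols. FOS, EGR1 and DNAJB1 are highest in mitotic cells, HSP90AA1 is lowest there, DDIT3 is highest in meiotic cells of ending 2 and HSPB1 is lowest in meiotic cells.

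Between the 2 sets of barcodes, members of a class did not move as 1 block. In stroma-like cells 0 of 28 immediate early and 0 of 7 heat shock genes were past 2-fold in either direction, where 5.26% of all genes were higher and 10.5% lower in barcodes ending in 2. Single genes there ran from −0.92 (−1.43 to −0.41) for NR4A3 and −0.91 (−1.05 to −0.78) for IER2 to 0.87 (0.76 to 0.98) for KLF6 and 0.94 (0.88 to 1.01) for DUSP1 (log2 ratios), and the heat shock sum had a log2 ratio of 0.35 (0.33 to 0.36). In granulosa-like cells NR4A2 and KLF6 were 2-fold higher with barcodes ending in 2 (5.62% of all genes), with log2 ratios of 1.17 (1.09 to 1.24) and 1.22 (1.12 to 1.33), and JUNB, JUND, EGR4, IER2, DUSP2, MXD1 and BAG3 2-fold lower (15.0%), IER2 by the most, −2.62 (−2.77 to −2.47). In germ cell-like cells JUND, EGR4, IER2 and KLF4 were 2-fold lower with barcodes ending in 2 (11.5% of all genes) and no member higher (10.4%). These 3 classes draw on different clusters or stages in the 2 sets.

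The surface epithelium-like class is 1 cluster shared by both sets (664 and 592 cells). There NR4A2 and DUSP1 were 2-fold higher with barcodes ending in 2, with log2 ratios of 1.07 (0.90 to 1.25) and 1.02 (0.93 to 1.12), and no member was 2-fold lower (4.07% and 7.50% of all genes). In endothelial-like cells, again 1 cluster, 5 immediate early genes were 2-fold higher with barcodes ending in 2 (8.66% of all genes): DUSP1 with 2.03 (1.87 to 2.21), KLF6 with 1.57 (1.28 to 1.86), FOSL2 with 1.55 (1.18 to 1.94), NR4A2 with 1.19 (0.78 to 1.62) and ZFP36 with 1.16 (1.04 to 1.29). The heat shock genes HSPA8 and BAG3 were as well, and EGR4, from few UMIs, was the only member 2-fold lower (7.30%). DUSP1, KLF6, NR4A2 and the heat shock gene HSPA8 had log2 ratios above 0.2 in each of the 5 classes compared, IER2 had ratios below −0.5 in each, and EGR4 and JUNB were below 0 in each. The intervals of EGR4 in stroma-like cells, −0.11 (−0.53 to 0.32), and of JUNB in endothelial-like cells, −0.06 (−0.75 to 0.69), spanned 0. These genes were picked out after their values were seen. The ending is confounded with fetus, age and library, which cannot be told apart.

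Cells of a class varied widely in immediate early UMIs. In cells thinned to 1000 UMIs, granulosa-like cells with barcodes ending in 1 had a median of 9 immediate early UMIs, with a 10th percentile of 1 and a 90th of 29, and stroma-like cells of that ending a median of 15 with 3 and 35. Germ cells had a median of 1 in both sets, and 38.8% and 48.4% of them had none. The tenth of germ cell-like cells with most held 49.0% and 53.3% of the class's immediate early UMIs, against 25.1% and 26.4% in stroma-like cells. Such a share rises by counting alone when counts are low, so it does not compare the spread of these classes. The mean was 1.65 and 1.26 such UMIs per germ cell-like cell and 17.4 and 18.5 per stroma-like cell. In erythroid-like cells the share was 57.3% and 48.0%. For heat shock UMIs the tenth of cells with most held 20.6% and 22.1% in germ cell-like cells and 27.9% and 26.1% in stroma-like cells, in the latter about as much as for immediate early UMIs. Heat shock UMIs had a median of 8 and 10 in germ cell-like and 6 and 4 in granulosa-like cells. Of the 3058 granulosa-like cells of ending 2, 1537 were in the PLXNC1 cluster, with a heat shock median of 2. That cluster had a median of 48.4% mitochondrial UMIs before thinning. The heat shock median was 6 in the MNDA and 4 in the PCP4 cluster of that ending.

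**Figure D5:**
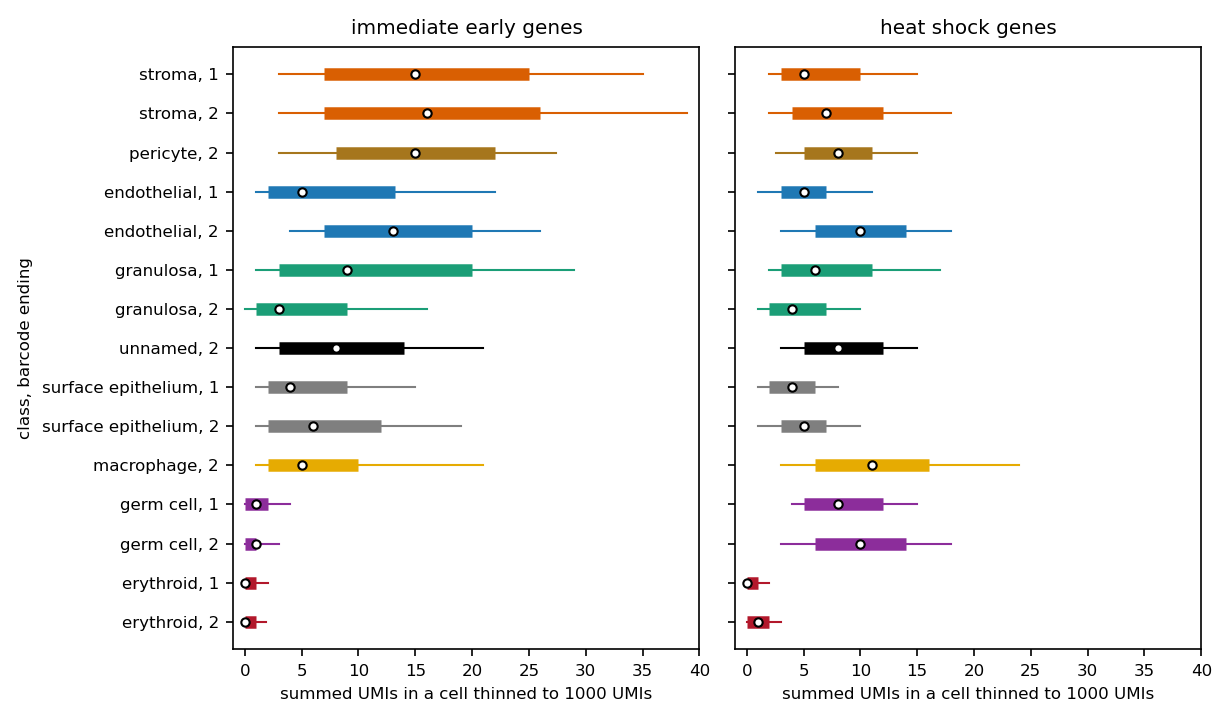
Summed immediate early (left) and heat shock (right) UMIs per cell after thinning to 1000 UMIs, by class and barcode ending with at least 100 such cells. White points are medians, thick bars the 25th to 75th and thin lines the 10th to 90th percentiles; the germ cell rows are near 0 on the left and among the highest on the right.

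In most somatic classes the 2 lists went together from cell to cell. Spearman's rho between the summed immediate early and heat shock UMIs of thinned cells was 0.71 and 0.62 in granulosa-like cells by ending (2479 and 3058 cells), 0.60 and 0.71 in stroma-like (1875 and 2452 cells), 0.41 and 0.51 in surface epithelium-like (641 and 568 cells) and 0.40 and 0.54 in endothelial-like cells (128 and 365 cells). It was 0.21 in macrophage-like cells of ending 2 (169 cells). In germ cell-like cells, which hold few immediate early UMIs, it was 0.00 and 0.04 (3049 and 1576 cells). Cells of a set share a library, and in granulosa-like cells the immediate early UMIs also went with the cells' depth before thinning (rho 0.42 and 0.46) and against the mitochondrial share (−0.11 and −0.48), and their part in the relation was not tested. Clusters differed: within the single SOST cluster of ending 1 rho between the lists was 0.75 (2108 cells), and within the C7 stroma-like cluster of ending 2 0.72 (2278 cells), but it was 0.14 within the TRANK1 (256 cells) and 0.09 within the PCP4 cluster (107 cells) of granulosa-like cells of ending 1. With barcodes ending in 2, rho in the PCP4 cluster was 0.38 (446 cells). Most of the 849 TRANK1 cells of ending 1, with a median of 704 UMIs, were too shallow for thinning.

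Genes of the same pathways outside the lists were counted in lists fixed by function. Of 42 related immediate early, MAP kinase and serum response genes with enough UMIs, 25 were 2-fold higher and 0 lower in granulosa-like cells with barcodes ending in 1 than in germ cell-like cells, and of 40 in the other set 19 were higher and 2 lower. The largest ratios were those of PHLDA1, a regulator of cell survival, with a mean log2 ratio over both sets of 2.87, the neuronal activity gene NPAS4 with 2.82 and the small GTPase gene RHOB with 2.75, all below 25 CPM in both classes. Of 39 and 40 related chaperone genes, 5 and 5 were higher and 15 and 19 lower, against 20.3% and 19.7% of all genes higher and 22.0% and 31.2% lower, and their median log2 ratio was −0.71 and −0.68. The smallest were HSPA4L with −2.14 and HSPA4 with −1.76, both of the HSP110 family, and CCT4 with −1.97, a subunit of the cytosolic chaperonin that folds actin and tubulin. CCT4 was at 749 and 908 CPM in germ cell-like and 225 and 198 CPM in granulosa-like cells, and CCT2, CCT3, CCT5, CCT8 and TCP1 of the same complex were also 2-fold lower in both sets. HSF2, a heat shock factor, was among the genes lower in granulosa-like cells in both sets, and CRYAB, a small heat shock protein, among those higher.

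Over the 15 class and ending groups of at least 100 cells, the genes outside the lists whose log10 level was most like the summed immediate early genes were PNRC1, METTL9, RND3, MYD88, ACSS1, IFRD1, CMTM6 and CSKMT, with Pearson's r from 0.968 to 0.981 among 11095 genes. For the summed heat shock genes they were NUDT9, VDAC2, RAB21, ENSMFAG00000034356, SUB1, STK19, PUF60 and MRPL18, with r from 0.977 to 0.987. The r between the 2 sums was 0.770. These points share libraries, and the 2 erythroid-like groups are low on nearly every gene, so the values are a description.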

How the data were processed

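Droplet libraries of 2 fetal ovary samples were read as a matrix of UMI counts. The authors had run Cell Ranger 3.0.2 on Macaca_fascicularis_5.0 and deposited the counts, unnormalised, for both samples in 1 table. Cell Ranger keeps only reads that map to 1 place. The 2 barcode endings are not tied to a fetus in the sources used here, and 27 barcode sequences occur under both. The members, the related genes and the cell type markers were chosen with earlier results of these data known. All 20967 cells were clustered in Seurat 5.3.0 (R 4.3.3) on 2000 variable genes without members and related genes, with 18 principal components, 20 neighbours and a resolution of 0.6. A cluster took the class with most markers at least 1.5-fold higher (10 CPM added) in at least 5% of its cells, and needed 3 of them, unless another class with at least 3 markers had more of its markers, and at least 2, among the cluster's 10 leading genes. A cluster with no marker of its class among those 10 needed 2 times the markers of the next class, and its median UMI count could not lie below its sample's median divided by 3. This rule was set after the clusters were seen. Classes of at least 100 cells were described. Scrublet (scanpy 1.11.5) called 2 and 1 doublets, under 0.5% of cells, so doublets were kept, and the 8% of highest scores were left out as an alternative.

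Levels are summed UMIs as CPM with exact 95% Poisson intervals, ratios carry conditional exact binomial intervals, and shares were counted in cells thinned to 1000 UMIs with exact Clopper-Pearson intervals (Python 3.11.15, scipy 1.17.1). Intervals cover counting error only. With 1 library per ending no test was made. A gene counted as past 2-fold needed 20 UMIs over both classes. Counts at the 3′ end are not divided by gene length. Library sizes were also scaled with edgeR 4.0.16 trimmed means (TMM). Named genes were all members by role, with JUNB, JUND, IER5 and MXD1 in brief, the 3 related genes of highest and of lowest mean ratio, and the 8 genes outside the lists most like each sum, and single other genes were chosen after their values were seen. No sequence or promoter was analysed here.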

Additional observations from a re-analysis of the deposited data

How the results depend on the processing

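The summed immediate early genes stayed higher in granulosa-like than in germ cell-like cells under every alternative run, while the summed heat shock genes in barcodes ending in 1 had no stable direction. Log2 ratios below are those of granulosa-like over germ cell-like cells, and only values that moved past the counting interval are given. In barcodes ending in 1, the immediate early ratio of 2.57 became 3.37 with cells of 200 to 3000 genes, 2.87 without the highest doublet scores, 2.28 at a resolution of 1.0, 2.66 with list genes kept for clustering, 2.49 as a mean of single cells and 2.94 in thinned cells. For barcodes ending in 2, the ratio of 2.51 became 2.76, 3.26, 2.61, 2.47, 1.96 and 2.31 under these in turn, 2.40 with at most 10% mitochondrial UMIs, 2.63 at a resolution of 0.4, 2.56 without mitochondrial UMIs in the total and 2.79 with TMM. The heat shock ratio of 0.04 in barcodes ending in 1 reversed to −0.070 with cells of 200 to 3000 genes, to −0.0022 at a resolution of 1.0, to −0.18 as a mean of single cells and to −0.19 in thinned cells, and was 0.28 with at most 10% mitochondrial UMIs, 0.058 without the highest doublet scores, 0.071 with list genes kept and 0.051 with TMM. For those ending in 2 the heat shock ratio of −0.68 became −0.26, −0.61, −1.01 and −1.07 under the first 4 of these and −0.79, −0.71, −0.70 and −0.39 under the other 4, −0.50 at a resolution of 0.4 and −0.63 without mitochondrial UMIs in the total. Among alternatives chosen after seeing the data, leaving out FOS and HSP90AA1 gave 2.52 for immediate early genes in barcodes ending in 1 and 0.94 and a reversed 0.41 for heat shock genes. Leaving out the granulosa-like cluster of most mitochondrial UMIs gave 2.69 and −0.56 in barcodes ending in 2, leaving out the shallowest granulosa-like cluster gave 2.62 and 0.072 in those ending in 1, and leaving out shared barcodes moved none of the 4 ratios. The cause of these shifts was not tested.

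Counts past a fold depended on the fold where few genes were past it, and the share of all genes past the same fold is given in brackets. At 3-fold, 2 of 7 (11.7%) and 1 of 7 (12.5%) heat shock genes by ending were higher in granulosa-like than in germ cell-like cells, 1 of 7 (10.8%) and 2 of 7 (12.1%) were higher in stroma-like cells, and 0 (20.4%) were lower in granulosa-like cells of ending 2. At 1.5-fold, 1 heat shock gene (32.0%) was lower in granulosa-like cells of ending 1, and 1 (40.3%) and 1 (43.7%) in stroma-like cells. Between granulosa-like and stroma-like cells of ending 1, 6 of 28 immediate early genes (27.8%) were higher and 8 (15.2%) lower at 1.5-fold, and 1 (6.30%) was lower and 0 heat shock genes (8.84%) higher at 3-fold. With barcodes ending in 2, 16 (20.8%) were lower at 1.5-fold, 1 (8.38%) was higher and 4 (6.59%) lower at 3-fold, and 4 (20.8%) and 0 (6.59%) heat shock genes were lower at 1.5-fold and 3-fold. Unthinned, a FOS UMI was found in 49.5% and 52.4% of germ cell-like and 78.4% and 69.9% of granulosa-like cells, and a HSP90AA1 UMI in 99.1% of germ cell-like cells of ending 2 and 97.3% and 95.6% of granulosa-like cells.

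No paired analysis was possible because each ending is 1 library. Genes under 20 UMIs in a class carry intervals too wide to place them.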

Other observations

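Of 40 related chaperone genes compared in each set, 6 and 7 were 2-fold higher and 17 and 11 lower in stroma-like than in germ cell-like cells, against 17.2% and 18.9% of all genes higher and 28.7% and 32.7% lower, so that in barcodes ending in 2 both shares lay below those of all genes. HSF2, HSPA4, HSPA4L, BAG1, STIP1, TCP1, CCT2, CCT4, CCT5 and CCT8 were among the lower ones in both sets, and were also lower in granulosa-like cells in both. SERPINH1, the collagen chaperone, CRYAB and DNAJB4 were among the higher ones in all 4 comparisons. These genes were picked out after their values were seen.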
